A study of Homo sapiens with 6 samples.

Results

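The genes described are 8 components of ADP-ribose signalling: PARP9 and its partner ubiquitin ligase DTX3L, the PARP enzymes PARP14, PARP10, PARP12 and PARP8, and the DNA-repair enzymes PARP1 and PARP2, taken as a contrast. They were picked by symbol from the 57820 genes of the expression table, in which each symbol had 1 row, and all 8 were among the 15605 genes with enough counts to be tested. RNA was sequenced from M14, a human melanoma cell line that carried a doxycycline-inducible shRNA against STAG2 and was kept under puromycin. STAG2 is a subunit of cohesin, the ring complex that shapes chromatin loops, and the study asked how its loss alters genome folding and gene expression. The groups were 3 libraries of cells grown without doxycycline (WT) and 3 of cells grown with it (KD), collected after 5 days. The shRNA was present in all 6 libraries. Doxycycline was given to the KD cells alone, so its own effect and that of the shRNA cannot be told apart, and 1 line with 1 shRNA was sequenced.

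ADP-ribosylation is the transfer of ADP-ribose from NAD to proteins or nucleic acids. PARP1 and PARP2 build long chains of it at DNA breaks, whereas most other PARP proteins add a single unit or, like PARP9, have little activity of their own. Several of these other PARPs are known interferon-stimulated genes with antiviral roles, and PARP9 works in a heterodimer with DTX3L, an E3 ubiquitin ligase known to act in interferon signalling. Interferon-stimulated genes are switched on through ISGF3, a complex with STAT2 and IRF9 among its subunits that binds a DNA element called the ISRE.

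The expected counts per library, estimates in which the counting program divides a read between the genes it matches, summed to between 24895998 and 35181733. Levels are given as CPM, counts relative to a library size scaled by the TMM method, and 3 counts, taken as the floor of detection, came to between 0.0853 and 0.121 CPM. This floor covers counting error only. The lowest expected count of any of the 8 genes in any library was 202, for PARP8. The mitochondrial share of counts was 5.07% in WT replicate 1 and from 2.12% to 2.94% in the other libraries. Each melanocyte marker examined (MITF, PMEL, MLANA, TYR, TYRP1, DCT, SOX10 and S100B) reached 1 CPM. The summed marker level ranged from 1861 to 6311 CPM in WT and from 1195 to 2606 CPM in KD, with WT replicate 1 at 3370 CPM of PMEL against 662 and 684 CPM in WT replicates 2 and 3. The study calls its samples biologically independent, but the labels do not say how the replicates were kept apart, so the p-values measure the spread between these libraries.

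STAG2 itself was at 66.5, 34.8 and 28.8 CPM in WT replicates 1 to 3 and at 16, 7.31 and 6.69 CPM in KD replicates 1 to 3. Every KD library was below every WT library, and STAG2 fell by 2.12 on the log2 scale (SE 0.43, n = 3 per group, edgeR's quasi-likelihood test, adjusted p = 0.0342 by the Benjamini-Hochberg method across the tested genes). All adjusted p-values that follow come from this test unless another is named.

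PARP9 and DTX3L stand back to back on chromosome 3, and both, like PARP14 and PARP12, carried an ISRE-like element near a start. RefSeq lists 2 starts of PARP9 on the minus strand of GRCh37. The one nearest to DTX3L, at position 122283147, lay 38 bases from the DTX3L start at 122283185 on the plus strand, and the other, at 122283631, lay past it. The letters GAAANNGAAA were searched on both strands in windows from 250 bases before to 50 bases after each RefSeq start (sequences from the GRCh38 table of RefSeq, each placed on GRCh37 by an exact match). They occurred in 3.57% of all 35116 windows, once each in those of DTX3L, PARP14 and PARP12 and in 1 of the 2 windows of PARP9. The match began 41 bases before that nearest PARP9 start, 6 before that of DTX3L, 29 before that of PARP14 and 10 before that of PARP12, and PARP9 and DTX3L share the same bases. The windows of PARP8, PARP1 and PARP2 held no match, and that of PARP10 is not reported here. The stretches below run 5′ to 3′ on the strand of each gene, up to 30 bases past the start, with the ISRE-like letters in capitals where there are any. They show the element shared by PARP9 and DTX3L, those of PARP14 and PARP12, the last on the opposite strand, and for contrast the same stretch of PARP1 and PARP2. Their positions on GRCh37 are chr3:122283118-122283214 (plus strand), chr3:122399566-122399715 (plus), chr7:139762722-139762871 (minus), chr1:226595765-226595914 (minus) and chr14:20811674-20811823 (plus).
DTX3L: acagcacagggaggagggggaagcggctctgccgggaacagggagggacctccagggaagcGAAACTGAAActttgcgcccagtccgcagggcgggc
PARP14: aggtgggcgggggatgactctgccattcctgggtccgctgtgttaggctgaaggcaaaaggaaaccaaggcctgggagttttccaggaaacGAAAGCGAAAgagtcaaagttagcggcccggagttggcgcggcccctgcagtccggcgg
PARP12: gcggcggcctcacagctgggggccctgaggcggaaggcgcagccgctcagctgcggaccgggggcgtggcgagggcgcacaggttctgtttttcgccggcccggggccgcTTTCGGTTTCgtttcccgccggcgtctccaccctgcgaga
PARP1: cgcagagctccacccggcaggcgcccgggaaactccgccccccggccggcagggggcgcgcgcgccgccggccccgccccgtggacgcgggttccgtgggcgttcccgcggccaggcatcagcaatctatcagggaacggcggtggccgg
PARP2: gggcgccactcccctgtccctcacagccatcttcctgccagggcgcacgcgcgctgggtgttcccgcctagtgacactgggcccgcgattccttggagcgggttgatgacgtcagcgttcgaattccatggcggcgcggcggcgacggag

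In KD cells 5 of the 8 genes rose, namely PARP9, DTX3L, PARP14, PARP10 and PARP12, by 2.43-fold to 5.59-fold in mean CPM. PARP8, PARP1 and PARP2 did not pass the test, and none of the 8 fell (0 were lower at an unadjusted p under 0.05, in DESeq2 or in limma-voom). Of all tested genes, edgeR called 1.75% higher and 0.839% lower. In each of the 5, the lowest KD library lay above the highest WT library, as in 11.8% of all tested genes. The median log2 fold change was 1.65 over the 8 genes and -0.03 over all tested genes. In bulk RNA, a change in the share of cells that express a gene and a change in the RNA per cell cannot be told apart. With the replicate number as a block, the same 5 genes were called, against 5.1% of all tested genes.

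**Figure D1:**
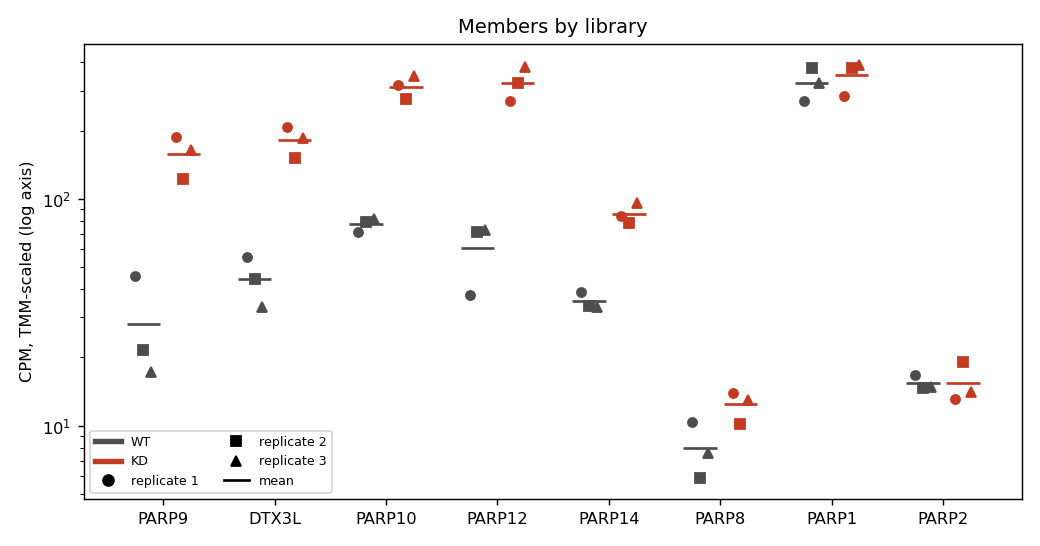
Level of each of the 8 genes in each library, in CPM on a log axis, with WT in grey, KD in red, 1 symbol per replicate number and a bar at the group mean of 3 libraries. For PARP9, DTX3L, PARP10, PARP12 and PARP14 the KD points lie above all WT points, and for PARP8, PARP1 and PARP2 the groups overlap.

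PARP9 (ENSG00000138496), a macrodomain protein that reads ADP-ribose, lies at chr3:122246771-122283424 of GRCh37 on the minus strand. Its level was 45.7, 21.6 and 17.3 CPM in WT replicates 1 to 3 and 187, 122 and 164 CPM in KD replicates 1 to 3. WT replicate 1 was the highest WT library and still lay far below the lowest KD library. The mean rose from 28.2 ± 15.3 to 157 ± 33 CPM (SD, n = 3), a log2 fold change of 2.48 (SE 0.36, edgeR adjusted p = 0.0072). Of the 8 genes, PARP9 had the largest log2 fold change, and it ranked 253 of 15605 tested genes. PARP12 was close, at 2.43, and the 2 were not separated. PARP12 was above PARP9 without WT replicate 2, WT replicate 3 or KD replicate 1, and below it without any of the other libraries.

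DTX3L (ENSG00000163840), the ligase that pairs with PARP9, lies at chr3:122283185-122294050 on the plus strand. It was at 55.2, 44.5 and 33.5 CPM in WT and at 207, 152 and 186 CPM in KD, replicates 1 to 3. As with PARP9, replicate 1 was the highest library of each group. The mean rose from 44.4 ± 10.8 to 181 ± 27.6 CPM, a log2 fold change of 2.03 (SE 0.24, edgeR adjusted p = 0.00183). The annotated exons of the pair share 139 bases on opposite strands. The library kit kept the strand of the RNA, but the strand setting of the counting is not given in the sources used here, so reads from these bases cannot be told apart between PARP9 and DTX3L.

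PARP14 (ENSG00000173193), a mono-ADP-ribosyltransferase with macrodomains, lies at chr3:122399686-122449687 on the plus strand, 116.5 kb from the DTX3L start. Its libraries were at 39, 33.6 and 33.4 CPM in WT and 84.1, 78.2 and 95.7 CPM in KD. The spread within each group was small, and the mean rose from 35.3 ± 3.2 to 86 ± 8.89 CPM. The log2 fold change was 1.28 (SE 0.19, edgeR adjusted p = 0.00741). It had the smallest rise of the 5 called genes, and without WT replicate 2 (1.24, adjusted p = 0.0516) or KD replicate 3 (1.18, adjusted p = 0.077) it no longer passed the test.

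PARP10 (ENSG00000178685), a mono-ADP-ribosyltransferase, lies at chr8:145051321-145086940 on the minus strand. Its WT libraries were at 71.5, 79.1 and 81.5 CPM and its KD libraries at 317, 275 and 348 CPM. The mean rose from 77.4 ± 5.23 to 313 ± 36.9 CPM, a log2 fold change of 2.02 (SE 0.19, edgeR adjusted p = 0.00056). This was the lowest adjusted p of the 8 genes. PARP10 shares 324 exonic bases with GRINA on the opposite strand, whose expected counts averaged 6278 in WT and 12208 in KD, and the part of those reads in the PARP10 values was not tested.

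PARP12 (ENSG00000059378), a mono-ADP-ribosyltransferase with zinc fingers that bind RNA, lies at chr7:139723549-139762751 on the minus strand. It was at 37.7, 71.2 and 72.6 CPM in WT and at 270.3, 324 and 382 CPM in KD. Replicate 1 was the lowest library of each group here, the reverse of its place for PARP9 and DTX3L. The mean rose from 60.5 ± 19.8 to 325 ± 55.8 CPM, a log2 fold change of 2.43 (SE 0.29, edgeR adjusted p = 0.00184).

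PARP8 (ENSG00000151883), a less studied PARP, lies at chr5:49961733-50142353 on the plus strand. Its libraries were at 10.4, 5.86 and 7.61 CPM in WT and 13.9, 10.2 and 13 CPM in KD. The groups overlapped, since WT replicate 1 lay above KD replicate 2. The log2 fold change was 0.64 (SE 0.33, 95% interval from -0.10 to 1.38, edgeR adjusted p = 0.431), so a rise of up to about the size of that of PARP14 was within its interval.

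PARP1 (ENSG00000143799), the main enzyme that makes poly(ADP-ribose) at DNA breaks, lies at chr1:226547911-226595855 on the minus strand. It was at 270.2, 379 and 324 CPM in WT and at 284, 379 and 391 CPM in KD, and the groups overlapped. The log2 fold change was 0.12 (SE 0.22, 95% interval from -0.37 to 0.60, edgeR adjusted p = 0.881). The upper bound lay below the lower bound of PARP14, 0.86, the lowest of the 5 called genes.

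PARP2 (ENSG00000129484), a second DNA-break enzyme, lies at chr14:20811774-20826063 on the plus strand. Its libraries were at 16.7, 14.6 and 14.8 CPM in WT and at 13.1, 19 and 14.1 CPM in KD. The lowest and the highest values were both in KD libraries, and the means were 15.4 ± 1.13 and 15.4 ± 3.2 CPM. The log2 fold change was 0.00 (SE 0.27, 95% interval from -0.59 to 0.60, edgeR adjusted p = 0.997). PARP2 shares 71 exonic bases on the opposite strand with a long non-coding RNA (ENSG00000259001) whose expected counts averaged 596 in WT and 422 in KD.

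Log2 ratios of expected counts within a library, with 0.5 added to each count, do not depend on scaling and were compared by a two-sided exact permutation test, which with 3 libraries against 3 cannot go below p = 0.1. The summed counts of the 5 called genes relative to those of PARP1 and PARP2 had log2 ratios of -0.20, -0.66 and -0.51 in WT and 1.84, 1.26 and 1.53 in KD. The mean went from -0.45 ± 0.23 to 1.54 ± 0.29 (SD, n = 3), the groups did not overlap, and the exact permutation p was 0.1, the smallest possible (0.25 after adjustment over 5 ratios). Since these genes were grouped with their changes known, the direction of this ratio, its lack of overlap and its p-value are a description.

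Within the called genes, PARP14 and DTX3L were each set against PARP9. The log2 ratio of PARP14 to PARP9 was -0.23, 0.64 and 0.95 in WT and -1.15, -0.64 and -0.77 in KD. The groups did not overlap and the difference was -1.31 (exact permutation p = 0.1, 0.25 after adjustment). For DTX3L relative to PARP9 the ratio was 0.27, 1.05 and 0.96 in WT and 0.14, 0.32 and 0.18 in KD, a difference of -0.54 with overlapping groups (exact permutation p = 0.2). PARP12 relative to PARP10 differed by 0.46 (exact permutation p = 0.3) and PARP8 relative to PARP1 by 0.55 (exact permutation p = 0.4), both with overlapping groups. Within the same-numbered pairs, the KD minus WT difference had 1 sign in all 3 pairs for each of the 5 ratios. It was -0.13, -0.73 and -0.77 for DTX3L to PARP9, 0.70, 0.39 and 0.30 for PARP12 to PARP10, and 0.35, 0.80 and 0.50 for PARP8 to PARP1, where 3 pairs cannot go below an exact p of 0.25. None of the 5 ratios could pass a threshold of 0.05 in this design.

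Per kilobase of merged annotated exons, which allows genes to be compared, the order of the 8 genes differed between the groups. In WT, PARP1 was highest at 17.6 ± 2.97 CPM per kb, then PARP10 at 12.8 ± 0.867, PARP12 at 11 ± 3.59, DTX3L at 7.7 ± 1.87, PARP2 at 3.78 ± 0.279, PARP14 at 3.44 ± 0.312, PARP9 at 3.15 ± 1.71 and PARP8 at 0.787 ± 0.226 CPM per kb (SD, n = 3). The library values of PARP10 and PARP12, of PARP12 and DTX3L, of PARP2 and PARP14, and of PARP14 and PARP9 overlapped, so these neighbours were not separated. In KD, PARP12 was highest at 59.1 ± 10.1 CPM per kb, then PARP10 at 51.9 ± 6.12, DTX3L at 31.4 ± 4.78, PARP1 at 19.1 ± 3.2, PARP9 at 17.6 ± 3.69, PARP14 at 8.37 ± 0.865, PARP2 at 3.79 ± 0.788 and PARP8 at 1.22 ± 0.192 CPM per kb. There the libraries of PARP12 and PARP10 and those of PARP1 and PARP9 overlapped. The merged exons of PARP1 span 18399 bases against 6210 in its longest transcript, and with transcript lengths PARP1 was at 56.6 ± 9.49 CPM per kb in KD, above DTX3L.

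Among the 17 PARP genes of the table, PARP12 went from rank 3 to rank 1 per kilobase, PARP9 from rank 13 to rank 4, and PARP1 from rank 1 to rank 3, while PARP10 stayed at rank 2. The summed level of the family was 96.3, 106 and 96.8 CPM per kb in WT and 225, 219 and 250.3 CPM per kb in KD. PARP9, PARP10, PARP12 and PARP14 together made 28.7%, 30.1% and 32.9% of it in WT and 58%, 57.2% and 61.8% in KD. The share of PARP1 and PARP2 was 19.5%, 22.9% and 21.9% in WT and 8.28%, 11.5% and 9.88% in KD. With the longest transcript as gene length it was 32.6%, 36.6% and 35.1% in WT, then above the 27.8%, 28.5% and 31.7% of PARP9, PARP10, PARP12 and PARP14, and 14.2%, 18.9% and 16.6% in KD, against 59.2%, 57.1% and 61.7%. As the shares add up to the whole, this lower share went with levels of PARP1 and PARP2 that did not pass the test.

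**Figure D2:**
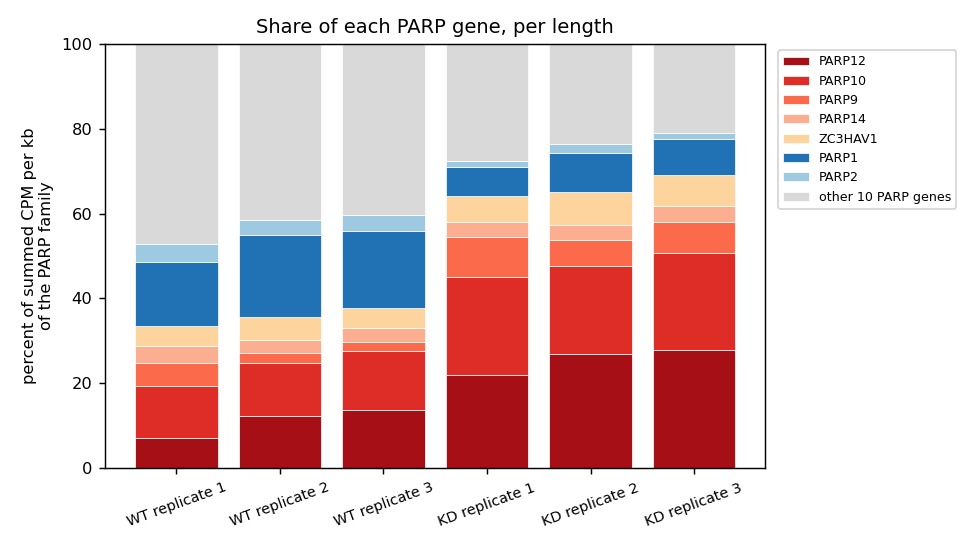
Share of each PARP gene in the summed CPM per kb of merged exons over 17 PARP genes, as percent (stacked to 100), for each library. PARP9, PARP10, PARP12 and PARP14 (reds) cover 28.7% to 32.9% in the WT libraries and 57.2% to 61.8% in the KD libraries, and PARP1 and PARP2 (blues) cover 19.5% to 22.9% and 8.28% to 11.5%.

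Of the 10 other PARP genes, 2 rose and none fell in the edgeR test (0 lower also at an unadjusted p under 0.05, in DESeq2 and in limma-voom), with a median log2 fold change of 0.35. ZC3HAV1, also called PARP13 or ZAP, a catalytically inactive PARP that binds viral RNA, was at 38.4, 48.3 and 39.1 CPM in WT and 117, 143 and 155 CPM in KD. Its log2 fold change was 1.72 (SE 0.20, edgeR adjusted p = 0.00183), and its KD libraries were all above its WT libraries. PARP6, a mono-ADP-ribosyltransferase, was at 27.8, 35.7 and 25.7 CPM in WT and 57.6, 54 and 58.9 CPM in KD (log2 fold change 0.94, SE 0.21, edgeR adjusted p = 0.0481). The PARP6 call was lost whenever any 1 library was left out (log2 fold change from 0.84 to 1.08, adjusted p from 0.0608 to 0.232) and under RLE (0.0522) and upper-quartile (0.0521) scaling. It held with the replicate block (adjusted p = 0.0101), in DESeq2 (0.00511) and in limma-voom (0.0412).

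TIPARP, a PARP known as a target of the aryl hydrocarbon receptor and named here after its values were seen, was at 18.8, 19 and 20.1 CPM in WT and 45, 28.5 and 33.3 CPM in KD. It did not pass the test (log2 fold change 0.88, edgeR adjusted p = 0.101) but did with the replicate block (0.86, adjusted p = 0.0268) and in DESeq2 (adjusted p = 0.0362). TIPARP also missed the threshold in limma-voom (adjusted p = 0.112), under RLE (0.104) and upper-quartile (0.119) scaling, and without any 1 library (0.108 to 0.293). PARP15, which lies between DTX3L and PARP14, was low, with 1.23, 0 and 0.32 CPM in WT and 2.6, 0 and 0.951 CPM in KD. A count of 0 allows a level of up to 0.0853 CPM in WT replicate 2 and 0.0963 CPM in KD replicate 2. The remaining PARP genes, PARP3, PARP4, PARP11, PARP16, TNKS and TNKS2, had log2 fold changes from -0.61 to 0.47 and were not called.

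**Figure D3:**
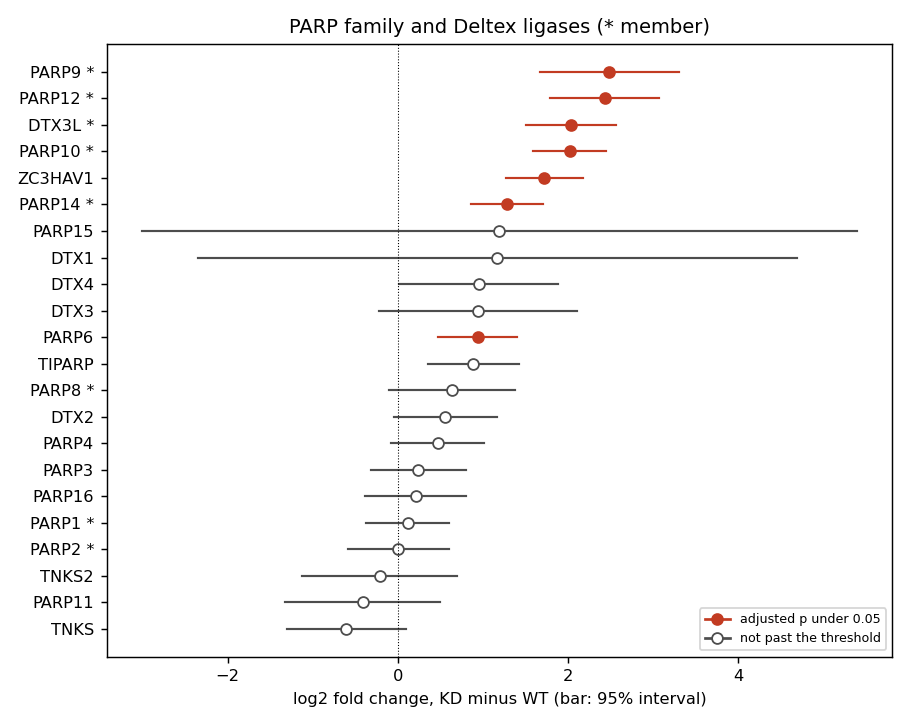
Log2 fold change (KD minus WT, edgeR) of the PARP genes and the Deltex ligases with 95% intervals; filled red points passed an adjusted p of 0.05, and an asterisk marks the 8 genes described. PARP9, PARP12, DTX3L and PARP10 lead at 2.02 to 2.48, ZC3HAV1, PARP14 and PARP6 are the other genes called, and PARP1 and PARP2 lie at 0.12 and 0.00.

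Of the 4 other Deltex ligases, relatives of DTX3L, edgeR called none (1 was higher at an unadjusted p under 0.05, and DESeq2 and limma-voom called 0). DTX2 was at 19.2, 26.3 and 17.7 CPM in WT and 27.2, 40.1 and 25.3 CPM in KD (log2 fold change 0.55, edgeR adjusted p = 0.392). DTX4 was at 8.94, 13 and 6.01 CPM in WT and 9.55, 25.5 and 18.9 CPM in KD (0.95, adjusted p = 0.332). For both genes the groups overlapped. The median log2 fold change of the 4 genes was 0.94.

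Among genes that remove or read ADP-ribose, 9 of the 12 listed were tested and edgeR called none (1 was lower at an unadjusted p under 0.05, and called lower by DESeq2 but not by limma-voom), with a median log2 fold change of -0.02. The 2 most abundant were H2AFY, the macroH2A histone with a macrodomain, and ADPRHL2, the hydrolase ARH3 that takes ADP-ribose off serine. H2AFY was at 129, 195 and 245 CPM in WT and 161, 195 and 204 CPM in KD (log2 fold change -0.02, edgeR adjusted p = 0.984). ADPRHL2 was at 122, 149 and 171 CPM in WT and 182, 158 and 218 CPM in KD (0.34, adjusted p = 0.536). MACROD1, a mono-ADP-ribose hydrolase named here after its values were seen, was at 135, 86.1 and 125 CPM in WT and 64.6, 75 and 72.4 CPM in KD. Every KD library was below every WT library, and MACROD1 did not pass the test (-0.71, edgeR adjusted p = 0.142) but was called lower with the replicate block (-0.68, adjusted p = 0.0448).

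The 9 DNA-repair partners of PARP1 were all tested and edgeR called none (1 was lower at an unadjusted p under 0.05, and DESeq2 and limma-voom called 0). Their log2 fold changes ran from -0.65 to 0.37, with a median of -0.03. FEN1, a flap endonuclease, was at 104, 164 and 190 CPM in WT and 105, 101 and 141 CPM in KD, with overlapping groups (log2 fold change -0.40, edgeR adjusted p = 0.553). PCNA, the sliding clamp of replication and repair, was at 72.6, 85.5 and 125 CPM in WT and 64.9, 48.8 and 66.8 CPM in KD. The PCNA groups did not overlap, at a log2 fold change of -0.65 (edgeR adjusted p = 0.24). Of all tested genes, 10.5% had every KD library below every WT library.

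Of 10 genes of NAD metabolism, which supplies the substrate of all PARPs, 9 were tested and edgeR called none. At an unadjusted p under 0.05, 2 were lower, while DESeq2 called 1 lower and limma-voom 0. The median log2 fold change was 0.11. QPRT, the enzyme that makes nicotinic acid mononucleotide from quinolinate, was at 337, 290.3 and 267 CPM in WT and 234, 161 and 179 CPM in KD. Its groups did not overlap (log2 fold change -0.64, edgeR adjusted p = 0.173), and with the replicate block it was called lower (-0.65, adjusted p = 0.0184). NAMPT, the rate-limiting enzyme of NAD salvage, was at 141, 72.3 and 70.9 CPM in WT and 214, 70.5 and 75.7 CPM in KD, with replicate 1 the highest of each group (0.35, adjusted p = 0.817).

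The interferon partners described are IRF9 and STAT2, subunits of ISGF3, and STAT6, whose activation PARP14 is known to assist. IRF9 was at 19, 21.5 and 19.9 CPM in WT and 130.3, 123 and 128 CPM in KD (log2 fold change 2.66, SE 0.18, edgeR adjusted p = 6.49e-05). STAT2 was at 112, 94.4 and 68.1 CPM in WT and 323, 381 and 351 CPM in KD (1.94, SE 0.23, adjusted p = 0.00184). Both rose, with no overlap between groups. STAT6 was at 166, 252 and 228 CPM in WT and 253, 326 and 341 CPM in KD, which did not pass the test (0.51, edgeR adjusted p = 0.324) but did with the replicate block (0.52, adjusted p = 0.0422).

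Around PARP9 and DTX3L, 12 neighbouring genes were listed and 9 of them tested. The edgeR test called none (1 was higher at an unadjusted p under 0.05, and DESeq2 and limma-voom called 0), and their median log2 fold change was 0.20. KPNA1, an importin alpha that starts 49.4 kb before the DTX3L start, was at 63.5, 71.2 and 63.1 CPM in WT and 48.8, 56.2 and 54.8 CPM in KD (log2 fold change -0.31, edgeR adjusted p = 0.496). PDIA5, a protein disulfide isomerase gene 502.7 kb on the other side, was at 30.5, 59.9 and 58.6 CPM in WT and 41.8, 69.3 and 55.4 CPM in KD (0.16, adjusted p = 0.882). CSTA, which codes for a protease inhibitor and was named after its values were seen, was near the floor in WT at 0.261, 0 and 0 CPM and at 1.21, 3.11 and 0.551 CPM in KD (adjusted p = 0.31). Of the tested genes in this stretch, then, PARP9, DTX3L and PARP14 were called and PARP15 and the 9 neighbours were not. Whether the neighbours differ from the called genes was not tested.

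**Figure D4:**
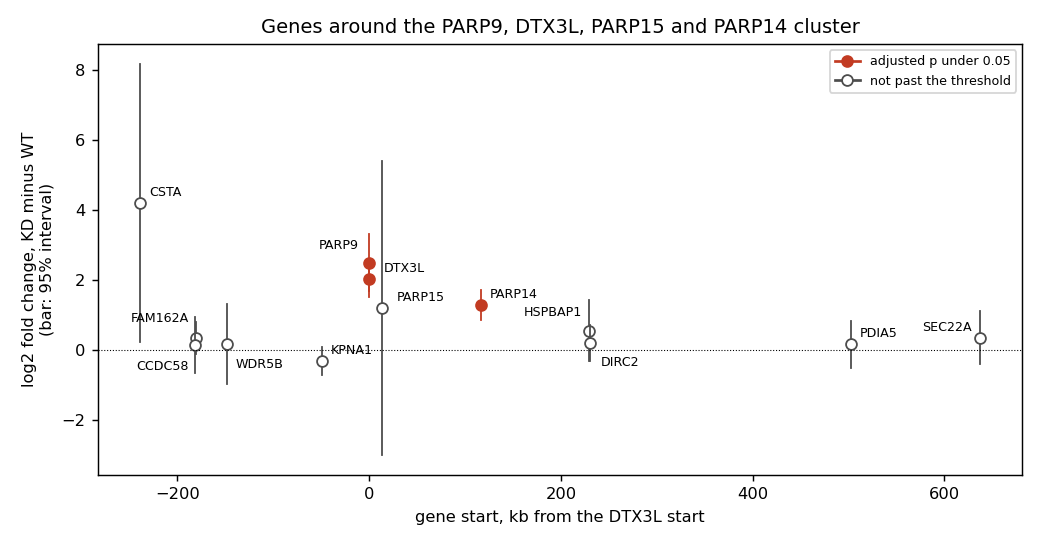
Log2 fold change (KD minus WT, edgeR) with 95% intervals of the tested genes around PARP9 and DTX3L, by the distance of their start from the DTX3L start in kb. PARP9, DTX3L and PARP14 (filled red) passed an adjusted p of 0.05, and the open points, PARP15 and CSTA with wide intervals at low counts among them, did not.

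The genes whose profile over the 6 libraries was nearest to that of PARP9 were sought among 13005 tested genes, by the root mean square difference of log2 CPM around each gene's mean. The nearest were IFIT5, an interferon-induced RNA-binding protein (0.149), KYNU, kynureninase of tryptophan breakdown (0.224), HERC5, the ligase for ISG15 (0.225), PLSCR1, phospholipid scramblase (0.253), and EIF2AK2, the RNA-sensing kinase PKR (0.260). IFIT5 was at 8.23, 3.28 and 2.29 CPM in WT and 32.7, 20.1 and 24.6 CPM in KD. KYNU was at 5.4, 3.22 and 2.29 CPM in WT and 23.8, 12.3 and 15.6 CPM in KD. In all 5, as in PARP9, replicate 1 was the highest library of each group, and their log2 fold changes ran from 2.24 to 2.66. The 5 were chosen for their likeness to PARP9 in these libraries, so both traits follow from the choice. DTX3L was rank 12 by this measure (0.370), PARP10 rank 50, PARP14 rank 158 and PARP12 rank 191, while PARP1 and PARP2 were ranks 5609 and 5917. The measure includes the difference between KD and WT, so these ranks partly restate the fold changes.

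Because replicate 1 stood apart in several of these values, the comparison was also made without WT replicate 1 and KD replicate 1, an alternative added after the data were seen. The same 5 of the 8 genes were called higher, where 2.88% of all tested genes were, and PARP9 had a log2 fold change of 2.88. The summed level of the 6 leukocyte markers PTPRC, CD3E, CD14, CD68, LYZ and ITGAM was 27.1 to 40.9 CPM in WT and 90.9 to 127 CPM in KD, and 2 of the 6 reached 1 CPM. CD68, a lysosomal protein, made up most of it at 25.3, 39.1 and 36.2 CPM in WT and 125, 88.9 and 88.4 CPM in KD (log2 fold change 1.59, edgeR adjusted p = 0.00855). PTPRC, the common leukocyte antigen, was at 0 but for 0.582 CPM in WT replicate 3, and CD3E was at 0 in every library. LYZ, lysozyme, was at 0.875, 0.864 and 0.473 CPM in WT and 2.17, 1.97 and 2.17 CPM in KD, with no overlap (log2 fold change 1.51, edgeR adjusted p = 0.447). The summed levels were 4.26 to 93.6 CPM in WT and 3.49 to 23.6 CPM in KD for 6 fibroblast markers, 28.8 to 44.4 and 18 to 27.6 CPM for 4 keratinocyte markers, and 1.75 to 3.69 and 2.08 to 5.45 CPM for 2 endothelial markers. No gene of these 3 lists was called by edgeR, at an unadjusted p under 0.05, by DESeq2 or by limma-voom, though 1 fibroblast marker was called lower with the replicate block. Of the 8 melanocyte markers, edgeR called S100B lower, at 145, 106 and 101 CPM in WT and 47.3, 49.5 and 40.8 CPM in KD (log2 fold change -1.35, adjusted p = 0.00949). With the replicate block it called 6 of the 8 lower, against 4.42% of all tested genes. The part of these markers in the rise of the PARP genes was not tested.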

How the data were processed

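RNA-seq libraries of M14 cells without (WT, n = 3) and with doxycycline (KD, n = 3) were analysed. Per the labels, poly(A) RNA was turned into strand-preserving libraries, and the submitters' processing notes name STAR, RSEM and hg19. The authors deposited expected counts per gene (RSEM estimates, not scaled or filtered); their totals per library and the floor of 3 counts are given with the results, and deeper libraries and higher counts carry less counting error. The strand setting of counting is not given in the sources used here.

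Expected counts were rounded, genes were filtered with filterByExpr (15605 kept), libraries were scaled by TMM, and the quasi-likelihood test of edgeR 4.0.16 (R 4.3.3) compared KD against WT. P-values were adjusted across the tested genes by the Benjamini-Hochberg method, at a threshold of 0.05. Groups were taken from the titles. Same-numbered WT and KD libraries deviated together from their group means (r = 0.524, 0.365 and 0.301 over 10569 genes, other pairs from -0.430 to 0.235). The numbers were therefore taken to pair the libraries. The main test did not use this pairing, and a replicate block was run as an alternative. Other alternatives were RLE and upper-quartile scaling, DESeq2 1.42.0, limma-voom (limma 3.58.1), no filter, at least 10 counts in every library, unrounded counts, a threshold of 0.01 and leaving out libraries. Ratios were tested in Python 3.11.15 by exact permutation. Gene positions and exon lengths came from a GENCODE annotation on GRCh37 (the same assembly as hg19). The test script was tested on simulated data.

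The 8 genes and the gene lists were chosen with earlier results of these data known. Named were these 8 genes, STAG2, the interferon partners, in each other list the called genes or, where fewer than 2 were called, the 2 with the highest mean CPM, and the 5 genes nearest to PARP9 in profile with a mean of at least 1 CPM; other genes in the text were picked with their values in view. Some items of these lists are not reported here.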

Additional observations from a re-analysis of the deposited data

How the results depend on the processing

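Of 314 alternative values for 43 results, 288 were taken as the same. They kept their direction and side of the threshold or moved by less than the spread between replicates. A count of called genes was also taken as the same when it differed from the main count by a small factor only. Such counts were 4 against 5 of the 8 genes, without WT replicate 2 or without KD replicate 3. Others were 3 against 2 of the other PARP genes, with the replicate block or DESeq2. The other 26 of the 314 values were not the same, and 0 reversed. Part of this tally could not come out otherwise. The exact p of the ratios within a library could not pass the threshold, so their side of it was fixed. PARP2 had a log2 fold change of 0.00, so none of its values could count as reversed. They ran from -0.18 without KD replicate 2 to 0.18 without both libraries of replicate 1. The log2 fold change of PARP14 ranged from 1.18 to 1.36 when 1 library was left out (1.38 without both libraries of replicate 1), and 2 of these 6 values lost the call, at 1.24 and 1.18, where fewer samples were fitted. The count of genes called higher among the other PARP genes was 1 in each fit without 1 library and 1 without both libraries of replicate 1, against 2, and it was 3 with the replicate block and with DESeq2. With the replicate block, and also with DESeq2, 1 gene was called lower among ADP-ribose erasers and readers and 1 in NAD metabolism, against 0. The block changed no call on the 8 genes, and beside the list counts just named it changed the call of STAT6 and calls among the melanocyte and fibroblast markers, as given above. Over all tested genes it raised the calls from 404 to 1486, and DESeq2 raised them to 979.

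With the longest transcript as gene length, the levels in CPM per kb moved to 23.3 for PARP9 in KD, and in WT and KD to 22.1 and 89.4 for PARP10, 20 and 108 for PARP12, 4.19 and 10.2 for PARP14, 1.06 and 1.65 for PARP8, 52.2 and 56.6 for PARP1, and 7.75 and 7.78 for PARP2; lengths of a gene are common to all libraries, so fold changes were the same. Without each library in turn, PARP9 ranged from 2.22 to 3.01, DTX3L from 1.86 to 2.21, PARP10 from 1.92 to 2.10 and PARP12 from 2.17 to 2.58, all past the threshold. With the replicate block, PARP9 was at 2.58 (edgeR adjusted p = 8.68e-05). For the ratios within a library, paired sign flips of 3 pairs cannot go below an exact p of 0.25.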

Other observations

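The ISRE-like letters were also counted over all genes with a RefSeq promoter window, as a description with no test. Of the 15605 tested genes, 10141 had a window, as did 200 of the 273 called higher and 96 of the 131 called lower. Among those with a window, a match was held by 4.06% of the tested genes. It was held by 50 of the 200 called higher (25%) and by 1 of the 96 called lower (1.04%). The called genes PARP9, DTX3L, PARP14 and PARP12 are among the 50. ZC3HAV1 and PARP6, which were also called higher, had no match in their windows. The ZC3HAV1 window held the GAS-like letters TTCNNNGAA once, which 7.66% of all windows did, and so did those of PARP14, which was called, and of PARP2, which was not. PARP15, not called, held them in 1 of its 2 windows. Of the genes with a window, 8.71% of those tested, 16% of those called higher and 9.38% of those called lower held the GAS-like letters. A match of letters is not a bound site, and binding was not analysed here.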
